A study of Mus musculus with 29 samples.

Results

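The 31 genes described here mark the oligodendrocyte lineage of the mouse brain, from dividing precursors to cells that wrap axons in myelin, and were chosen by name, not by a threshold on their values. Gene positions are those of the GENCODE annotation of build GRCm38. All 31 are among the 18240 genes measured by bulk RNA sequencing of prefrontal cortex at postnatal day 40, and all 31 passed the filter on low values. They were ordered by stage: 2 precursor genes (Pdgfra, Cspg4), 3 lineage transcription factors (Olig1, Olig2, Sox10), 4 genes of newly formed oligodendrocytes (Gpr17, Enpp6, Bcas1, Myrf) and 22 genes of the myelinating stage. The mice were of strain C57BL/6J and either wild type (WT) or heterozygous for a Tbr1 allele with the K228E substitution (Tbr1+/K228E, HT). WT mice received vehicle (4 females, 4 males), and HT mice received vehicle (3 females, 3 males), fluoxetine (4 females, 4 males) or lithium (3 females, 4 males). Every library is thus from a mouse given vehicle or a drug, the drugs were given to HT mice only, and the labels carry neither dose, route nor duration. Nothing in them says which libraries share a litter, so p-values measure the spread between these libraries.

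Oligodendrocytes arise from precursor cells that carry the receptor for platelet-derived growth factor. Precursors leave the cell cycle, pass through a short premyelinating phase marked by Gpr17, Bcas1 and Enpp6, and then switch on the structural proteins and lipid enzymes of the myelin sheath under the transcription factors SOX10 and MYRF. In the rodent cortex this switch runs through the juvenile weeks, and myelin is denser in the deep layers and in the white matter below than in the upper layers. Tbr1 itself encodes a T-box factor of deep-layer excitatory neurons and is not a gene of this lineage.

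The libraries held 22.81 M to 31.71 M recovered reads. Tbr1 lay between 2151 and 3432 (normalised read count) in WT and between 3728 and 4593 in HT vehicle (log2 fold change 0.52 ± 0.090 SE, limma adjusted p = 0.0164), although the level of a transcript with a substituted codon does not test the genotype. The cortical excitatory neuron gene Slc17a7 was high in every group (lowest library 32387). Genes of neighbouring regions varied widely between libraries. The mean of 19 striatal markers lay more than 1 log2 unit above the median library in 7 libraries: HT fluoxetine female 2 and males 1 and 2, HT lithium female 2 and male 2, and WT vehicle females 1 and 3. The mean of 10 olfactory bulb markers did so in 3: HT fluoxetine female 1, HT vehicle male 1 and WT vehicle male 3. Results were therefore also fitted with both means as covariates and without these 10 libraries. In bulk tissue, fewer cells of a type and less RNA per cell cannot be told apart.

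No member of the lineage was called in any comparison of groups. Members were called where the adjusted p of limma, taken over all 17881 genes tested, was under 0.05. HT vehicle minus WT vehicle called 0 of 31 members and 0.207% of all genes. Fluoxetine minus vehicle in HT called 0 of 31 members and 0% of genes, and lithium minus vehicle in HT likewise 0 of 31 and 0%. On the recovered reads, edgeR and DESeq2 also called 0 members in each of these comparisons. At an unadjusted p under 0.05, 4 members were lower in HT vehicle than in WT, against 5.58% of all genes. Under fluoxetine 3 were higher than under vehicle, against 4.22% of genes, and under lithium 1, against 5.87%. With the marker means as covariates 3 members were lower at that p for genotype. In that fit 0 were higher under either drug, and 1 was lower under fluoxetine and 2 under lithium. Without the 10 libraries high in those markers 1 member was lower for genotype, and 0 were higher or lower under either drug. The value ranges of the compared groups overlapped for every member, and the ranges of few genes did not overlap: 0.336% of all genes for genotype, 0.0615% for fluoxetine and 0.542% for lithium.

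**Figure D1:**
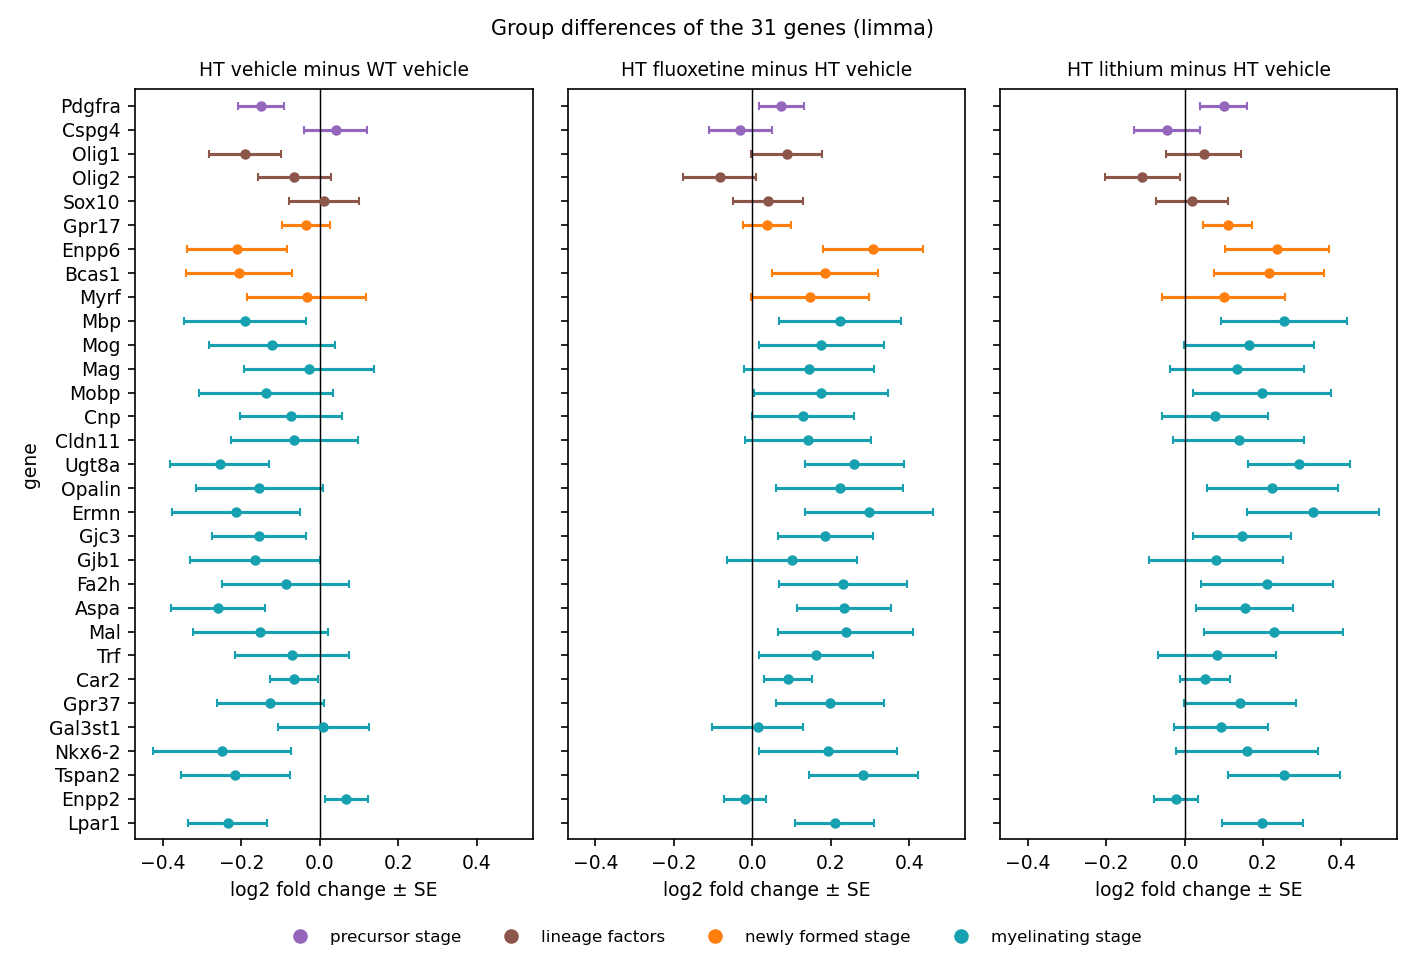
Log2 fold change ± SE (limma) on the x axis for each of the 31 genes on the y axis, in order of stage and coloured by stage, for 3 comparisons. Most points of the newly formed and myelinating stages sit left of 0 in HT vehicle minus WT vehicle and right of 0 for both drugs, which share the HT vehicle libraries. The medians over the 31 genes were -0.14, 0.18 and 0.14, and no gene passed the adjusted threshold.

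The 2 precursor genes had the smallest median spread within groups of the 4 stages. Pdgfra (chr5:75152292-75198215, plus strand) encodes the receptor that keeps precursors dividing. Its normalised count ran from 1434 (median 1527) to 1850 in WT vehicle, from 1270 (1459) to 1517 in HT vehicle, from 1314 (1528) to 1657 in HT fluoxetine and from 1425 (1520) to 1719 in HT lithium. The highest libraries were WT vehicle females 1 and 4, at 1815 and 1850, and the remaining WT libraries lay within the range of the HT libraries. The difference of HT vehicle from WT vehicle was -0.15 ± 0.058 (log2, SE; 0.901-fold; unadjusted p = 0.0151, limma adjusted p = 0.267), the smallest p among the members, with a 95% interval from -0.27 to -0.032. It was -0.16 ± 0.044 (limma adjusted p = 0.0992) with the striatal and olfactory means as covariates, and -0.16 ± 0.063 (limma adjusted p = 0.629) once the 10 libraries high in those markers were left out. Markers of other cells moved with it: all 10 endothelial markers (median -0.13), 11 of 12 microglial markers (-0.12) and all 12 meningeal markers (-0.18) were also lower in HT vehicle. So were 9 of 12 astrocyte markers (-0.094), while 9 of 12 cortical excitatory neuron markers, Tbr1 among them, were higher (0.11). Their part in the difference was not tested. Pdgfra differed from HT vehicle by 0.074 ± 0.058 under fluoxetine and by 0.10 ± 0.060 under lithium, both below its within-group SD of 0.11.

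Cspg4 (chr9:56865033-56899870), which encodes the NG2 proteoglycan of precursors and of pericytes, had differences of the opposite sign to those of Pdgfra. It ran from 459 (median 611) to 720 in WT vehicle, from 539 (584) to 681 in HT vehicle, from 503 (595) to 691 in HT fluoxetine and from 492 (595) to 645 in HT lithium. The medians of the 4 groups lay within the range of each group. HT vehicle differed from WT vehicle by 0.041 ± 0.080 (95% interval -0.12 to 0.21). Fluoxetine and lithium differed from vehicle by -0.030 ± 0.080 and -0.045 ± 0.083.

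The 3 lineage factors are basic helix-loop-helix and SOX proteins present from precursor to mature cell. Olig1 (chr16:91269772-91271933) ran from 1503 (median 2011) to 2405 in WT vehicle, from 1314 (1804) to 1984 in HT vehicle, from 1497 (1841) to 2131 in HT fluoxetine and from 1650 (1822) to 1974 in HT lithium. All HT medians lay below the WT median, inside the WT range. HT vehicle stood at -0.19 ± 0.092 against WT vehicle (0.876-fold; unadjusted p = 0.0467, limma adjusted p = 0.397). Leaving out the 10 high-marker libraries gave -0.10 ± 0.109.

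Olig2, the neighbouring gene on chromosome 16 (91225457 to 91228677) that specifies the lineage, had a median of 598 in WT vehicle, against 537 for HT mice on vehicle, 517 on fluoxetine and 487 on lithium. The ranges were 446 to 643, 425 to 609, 356 to 646 and 446 to 567.99, so they overlapped throughout. Against WT vehicle, HT vehicle stood at -0.065 ± 0.093, HT fluoxetine at -0.15 ± 0.086 and HT lithium at -0.17 ± 0.089 (limma adjusted p = 0.298), comparisons that share the WT libraries. For both drugs against WT, Olig2 was the member with the smallest p. Sox10 (chr15:79154908-79165240), which drives myelin genes directly, ran from 670 (median 769) to 907 in WT vehicle, from 586 (793) to 950 in HT vehicle, from 669 (835) to 920 in HT fluoxetine and from 704 (811) to 895 in HT lithium. Its differences were 0.011 ± 0.089 for genotype, 0.041 ± 0.089 for fluoxetine and 0.019 ± 0.092 for lithium, all smaller than its within-group SD of 0.18.

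Among the genes of newly formed oligodendrocytes, Enpp6, a choline phosphodiesterase of cells that have just left the precursor state, had the smallest p of any member under fluoxetine. Enpp6 (chr8:46986887-47096762) ran from 192 (median 235) to 302 in WT vehicle, from 149 (206) to 272 in HT vehicle, from 194 (261) to 308 in HT fluoxetine and from 176 (245) to 307 in HT lithium. HT vehicle females 1 and 3, at 163 and 149, were the lowest of all 29 libraries. The difference under fluoxetine was 0.31 ± 0.128 (1.24-fold; unadjusted p = 0.0229, limma adjusted p = 0.569; 95% interval 0.046 to 0.57), and under lithium 0.24 ± 0.132 (adjusted p = 0.495). The fluoxetine difference was 0.13 ± 0.112 with the marker means as covariates and 0.18 ± 0.146 with the high-marker libraries left out. HT vehicle differed from WT vehicle by -0.21 ± 0.128 (limma adjusted p = 0.533).

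Gpr17, a receptor that holds cells in the premyelinating phase, varied far less. It ran from 1848 (median 2220) to 2620 in WT vehicle, from 1972 (2119) to 2322 in HT vehicle, from 1856 (2230) to 2463 in HT fluoxetine and from 2168 (2268) to 2535 in HT lithium. Its differences were -0.036 ± 0.061 for genotype, 0.037 ± 0.061 for fluoxetine and 0.11 ± 0.063 for lithium. The gene shares bases with Lims2, which is read from the other strand. No source used here says if reads were assigned by strand, which leaves the level of Gpr17 uncertain. Bcas1, a gene of early myelinating cells, ran from 1860 (2488) to 3046 in WT vehicle, from 1499 (2213) to 2715 in HT vehicle, from 1580 (2428) to 3439 in HT fluoxetine and from 2121 (2532) to 2893 in HT lithium. Myrf (chr19:10208272-10240748), the membrane-bound transcription factor needed to start and keep myelination, ran from 655 (865) to 1219, from 609 (893) to 1197, from 658 (946) to 1285 and from 705 (922) to 1199.5 in the same order. The groups overlapped over most of their range for both genes. The Myrf genotype difference was -0.034 ± 0.151.

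The structural myelin genes spread over more than a factor of 2 between libraries, and this spread ran across all 4 groups. Mbp (chromosome 18, 82475146 to 82585637) encodes myelin basic protein, which compacts the sheath. It ran from 31858 (median 47154) to 61481 in WT vehicle, from 27876 (42658) to 56115 in HT vehicle, from 31635 (49591) to 68656 in HT fluoxetine and from 38973 (50247) to 58578 in HT lithium. The lowest library, HT vehicle female 3, and the highest, HT fluoxetine female 2, differed 2.46-fold, while the group medians differed far less. HT vehicle differed from WT vehicle by -0.19 ± 0.155 (limma adjusted p = 0.672; 95% interval -0.51 to 0.13), fluoxetine from vehicle by 0.22 ± 0.155 (adjusted p = 0.738; -0.095 to 0.54) and lithium from vehicle by 0.25 ± 0.161 (adjusted p = 0.547; -0.077 to 0.58). All 3 intervals include 0, and they reach further below 0 for genotype and further above it for the drugs.

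Mog, which encodes a glycoprotein of the outermost myelin layer, ran from 658 (median 1084) to 1291 in WT vehicle, from 646 (943) to 1309 in HT vehicle, from 709 (1093) to 1505 in HT fluoxetine and from 829.1 (1085) to 1335 in HT lithium. Mag, an adhesion molecule of the layer facing the axon, ran from 2109 (3145) to 4225, from 1931 (3343) to 4334, from 2293 (3508) to 4785 and from 2709 (3496) to 3999 in the same order of groups. Mobp, a small basic protein of the compact sheath, ran from 8889 (14658) to 19273, from 8077 (13040) to 19259, from 9770 (14601) to 21700 and from 12408 (15298) to 17376. Cnp, an enzyme that keeps cytoplasmic channels in the sheath open, ran from 4483 (5567) to 6902, from 3853 (5600) to 6857, from 4009 (6020) to 8085 and from 4494 (5937) to 6717. In each of these 4 genes HT vehicle female 3 was the lowest and HT fluoxetine female 2 the highest of the 29 libraries. Their genotype differences were -0.12 ± 0.160 (Mog), -0.027 ± 0.166 (Mag), -0.14 ± 0.170 (Mobp) and -0.073 ± 0.130 (Cnp), each smaller than its SE. Mobp also shares bases with Gm38642, and Cnp with Dnajc7 on the other strand, so their levels are less certain.

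Genes of myelin lipids and of signalling in mature cells gave the other small unadjusted p-values. Ugt8a encodes the enzyme that makes galactosylceramide, a main lipid of myelin. It ran from 847 (median 1092) to 1335 in WT vehicle, from 635 (959) to 1181 in HT vehicle, from 792 (1066) to 1437 in HT fluoxetine and from 943 (1131) to 1533 in HT lithium. Its differences were -0.25 ± 0.126 for genotype, 0.26 ± 0.126 for fluoxetine (unadjusted p = 0.0498, limma adjusted p = 0.636) and 0.29 ± 0.131 for lithium (unadjusted p = 0.0347, limma adjusted p = 0.411), of which the last was the smallest p of any member under lithium. Against WT vehicle, Ugt8a stood at 0.0049 in HT fluoxetine and at 0.036 in HT lithium.

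Lpar1, a lysophosphatidic acid receptor of maturing oligodendrocytes, ran from 562 (median 716) to 757 in WT vehicle, from 443 (597) to 749 in HT vehicle, from 574 (724) to 859 in HT fluoxetine and from 584 (683) to 864 in HT lithium. Of the 8 WT libraries 7 lay between 706 and 757, so a narrow WT group met a wide HT vehicle group. The differences were -0.23 ± 0.101 for genotype (unadjusted p = 0.0283, limma adjusted p = 0.338), 0.21 ± 0.101 for fluoxetine and 0.20 ± 0.104 for lithium. Aspa, which releases acetate from N-acetylaspartate for lipid synthesis, ran from 207 (288) to 331 in WT vehicle, from 177 (231) to 252 in HT vehicle, from 197 (260) to 332 in HT fluoxetine and from 181 (255) to 290 in HT lithium. Its genotype difference was -0.26 ± 0.119 (unadjusted p = 0.0387, limma adjusted p = 0.372), and -0.11 ± 0.125 with the high-marker libraries left out. Ermn, a cytoskeletal protein of late differentiation, ran from 490 (712) to 938, from 411 (672) to 791, from 511 (772) to 1154 and from 628 (803) to 912 in the same order. It had the largest lithium difference of the members, 0.33 ± 0.169 (limma adjusted p = 0.457).

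The remaining myelinating genes fell into the same range. Cldn11 (the tight-junction claudin of myelin), Opalin, Mal, Fa2h (which hydroxylates myelin fatty acids), Gal3st1 (which makes sulfatide), the connexin genes Gjc3 and Gjb1, Gpr37, Tspan2, the transcription factor gene Nkx6-2, the iron carrier gene Trf and the carbonic anhydrase gene Car2 had genotype differences between -0.25 (Nkx6-2) and 0.0091 (Gal3st1). Their fluoxetine differences lay between 0.014 (Gal3st1) and 0.28 (Tspan2), and their lithium differences between 0.052 (Car2) and 0.25 (Tspan2). Enpp2, which encodes autotaxin, the enzyme that makes lysophosphatidic acid, stood apart. Its differences had the opposite signs, 0.068 ± 0.054 for genotype, -0.018 ± 0.054 for fluoxetine and -0.021 ± 0.056 for lithium. Enpp2 ran from 5352 (median 5574) to 6838 in WT vehicle and from 5335 (6077) to 6892 in HT vehicle, and it was highest in HT vehicle female 3, where 20 of the 22 myelinating genes were lowest. Nkx6-2 shares bases with Inpp5a, and Enpp2 with Gm26684, in each case on the other strand.

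**Figure D2:**
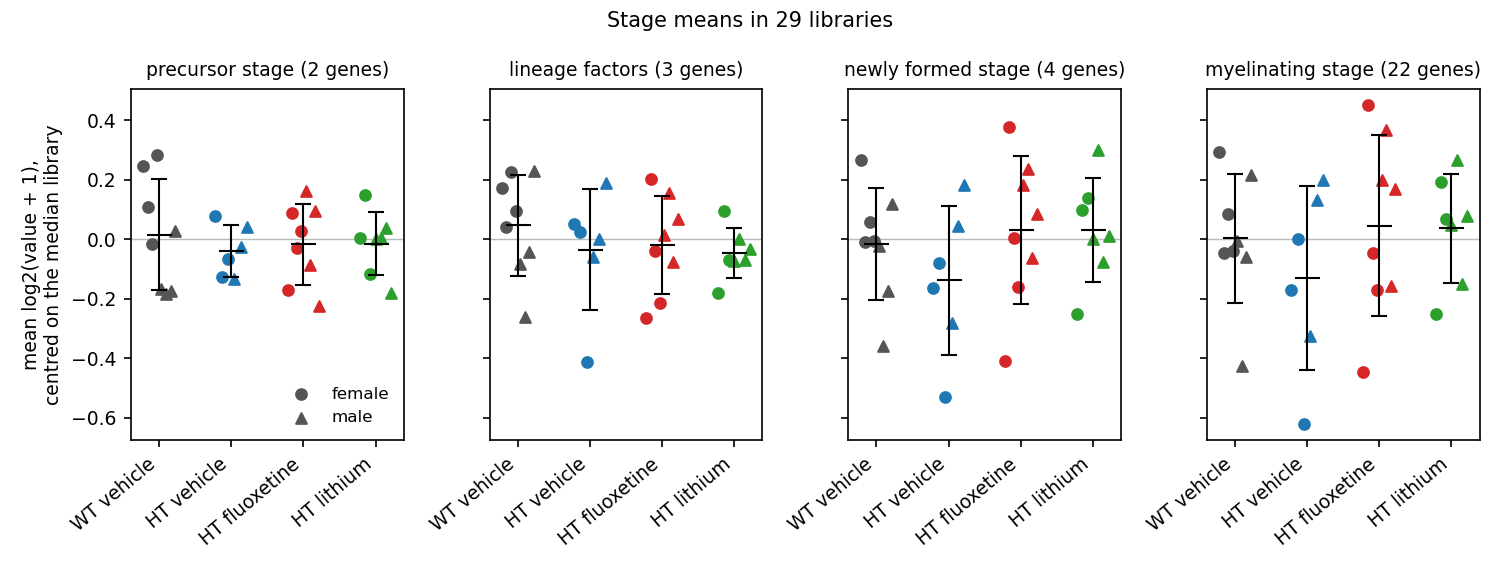
Mean of log2(value + 1) over the genes of each stage, centred on the median library, on the y axis, for the 4 groups on the x axis. Each point is 1 library (circles female, triangles male), and bars are group means ± SD. The myelinating panel runs from -0.62 (HT vehicle female 3) to 0.45 (HT fluoxetine female 2), the precursor panel only from -0.22 to 0.28, and the groups overlap in every panel.

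Set out by stage, the median differences were furthest from 0 at the newly formed and myelinating stages, below it for genotype and above it for both drugs. The median difference of HT vehicle from WT vehicle was -0.055 over the precursor genes, -0.065 over the lineage factors, -0.12 over the newly formed genes and -0.14 over the myelinating genes (log2). In that order the genes ran from -0.15 (Pdgfra) to 0.041 (Cspg4), from -0.19 to 0.011, from -0.21 to -0.034 and from -0.26 to 0.068. The first 3 of these medians rest on 2, 3 and 4 genes, so they do not fix an order of stages. For fluoxetine the medians were 0.022, 0.041, 0.17 and 0.19, and for lithium 0.028, 0.019, 0.16 and 0.16. Over all 31 genes, 27 were negative for genotype, and 28 were positive for each drug, while all genes tested had medians of 0.0001, -0.0044 and -0.0037. The genes of these stages vary together across libraries, so the counts are not 31 separate observations. In the genotype comparison all 13 mitochondrially encoded genes were lower too (median -0.19), and 17 of 19 striatal markers (-0.24). For fluoxetine all 19 striatal markers were positive (median 0.79, 9 at an unadjusted p under 0.05) and all 10 olfactory markers negative (-0.49). For lithium 15 of 19 striatal markers were positive (0.38) and all 10 olfactory markers negative (-1.27, 5 at that p). Both drug differences subtract the same 6 HT vehicle libraries, among which HT vehicle female 3 and male 1 had myelinating means of -0.62 and -0.32 from the median library.

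The medians moved close to 0 in fits that took markers of neighbouring regions into account, and some changed sign. With the striatal and olfactory means as covariates, the median over the 31 genes was -0.039 for genotype (10 positive), -0.033 for fluoxetine (9 positive) and 0.040 for lithium (22 positive). With the 10 high-marker libraries left out it was 0.022 (17 positive), 0.0047 (17 positive) and -0.0056 (15 positive). That fit keeps 4 of 8 HT fluoxetine libraries, 5 of 6 HT vehicle, 5 of 7 HT lithium and 5 of 8 WT vehicle libraries. Leaving out 1 library at a time kept the sign of all 3 medians, from -0.19 to -0.029 for genotype, from 0.069 to 0.24 for fluoxetine and from 0.066 to 0.21 for lithium. The value nearest 0 came without HT vehicle male 1 for genotype and lithium and without HT fluoxetine female 2 for fluoxetine. Both are among the 10 high-marker libraries, so the fit without those 10 does not separate marker level from these single libraries.

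**Figure D3:**
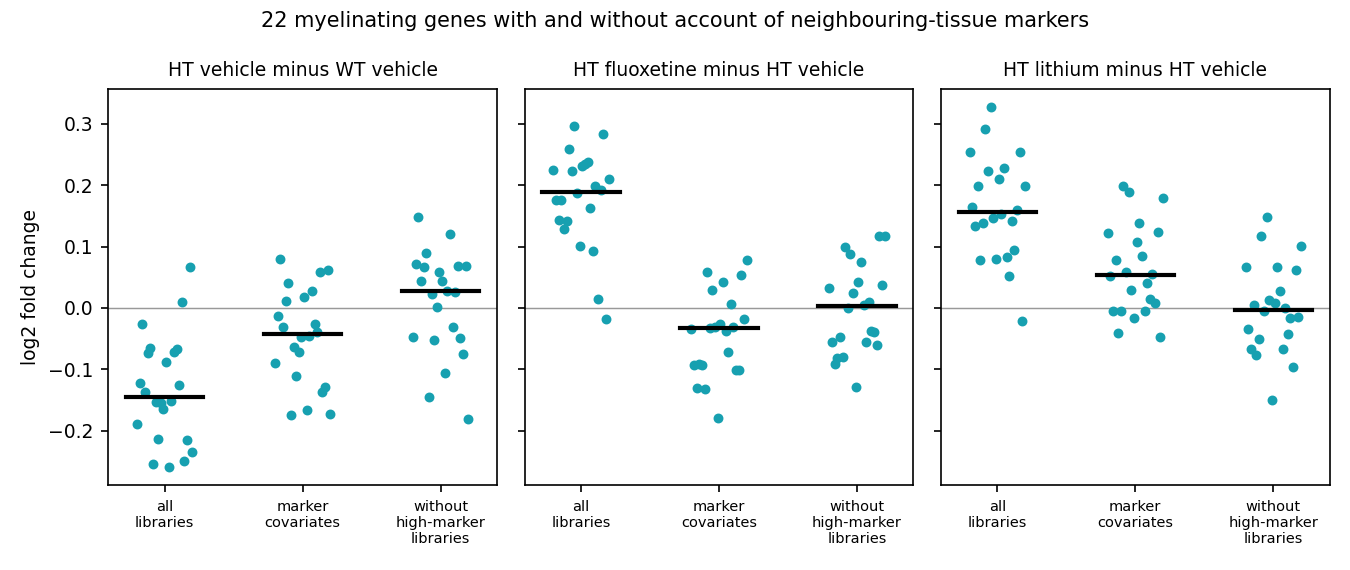
Log2 fold changes of the 22 myelinating genes (points) and their median (bar) on the y axis, for 3 comparisons and 3 fits on the x axis: all libraries, the striatal and olfactory marker means as covariates, and without the 10 libraries with high markers. The medians move from -0.14 to -0.042 and 0.027 for genotype, from 0.19 to -0.034 and 0.0026 for fluoxetine, and from 0.16 to 0.054 and -0.0026 for lithium.

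The drugs were also set against each other and against WT vehicle. Lithium minus fluoxetine called 0 of 31 members (0% of all genes), with a median of -0.014 and differences between -0.081 and 0.080. HT fluoxetine minus WT vehicle called 0 of 31 (0.19% of genes; median 0.039, 23 positive). HT lithium minus WT vehicle called 0 of 31, where 1.9% of all genes, 340 in number, were called (median 0.030, 21 positive). No member of the 31 had an unadjusted p under 0.05 in these 3 comparisons, and edgeR and DESeq2 called 0 members. With the marker means as covariates, 4 members were lower at that p for fluoxetine against WT and 2 for lithium against WT. The medians were then -0.083 for fluoxetine minus WT (1 positive), 0.090 for lithium minus fluoxetine (27 positive) and 0.014 for lithium minus WT (18 positive), and with the high-marker libraries left out -0.0022, -0.0096 and -0.0049. The medians of the fit to all libraries changed sign with single libraries: without HT fluoxetine female 2, lithium minus fluoxetine was 0.060 and fluoxetine minus WT -0.039, and without WT vehicle male 2, lithium minus WT was -0.024.

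The genotype difference lay lower in females than in males for nearly all members, although no test of it passed. Female minus male, it was negative in 30 of 31 genes, with a median of -0.43, against -0.0040 over all genes. It called 0 of 31 members and 0% of all genes (limma; edgeR 0 members, DESeq2 0). At an unadjusted p under 0.05, 3 members were lower (Olig2, Pdgfra and Mobp), against 2.89% of all genes, and Enpp2 was higher. The 3 lower members became 20 without HT vehicle male 1, 13 without HT vehicle female 2 or WT vehicle male 4, 5 without WT vehicle male 1, 1 without HT vehicle female 3 or WT vehicle male 3, and 0 without HT vehicle male 3 or WT vehicle male 2. The median ran from -0.59 without HT vehicle male 1 to -0.26 without HT vehicle female 3. Olig2 stood at 606, 606, 643 and 598 in the 4 WT females and at 587, 514 and 425 in the 3 HT vehicle females. In males it stood at 505, 446, 480 and 598 in WT and at 515, 558 and 609 in HT vehicle. The female groups did not overlap and the male groups did. In females 9 of the 31 members did not overlap between the genotypes, against 8.71% of all genes, and in males 0, against 6.83%. Its female minus male difference was -0.43 ± 0.186 (unadjusted p = 0.0287, limma adjusted p = 0.847). Pdgfra averaged 1695 ± 172 (SD, n = 4) in WT females and 1401 ± 114 (n = 3) in HT vehicle females, but 1483 ± 57.4 (n = 4) and 1456 ± 65.5 (n = 3) in males. All 19 striatal markers were also negative in this comparison (median -0.85), and with the marker means as covariates the median of the members was -0.19 and 0 were lower at an unadjusted p under 0.05. With the high-marker libraries left out the members' median was -0.45 and 9 were lower at that p. In this comparison that fit drops WT vehicle females 1 and 3, WT vehicle male 3 and HT vehicle male 1. Dropping HT vehicle male 1 alone gave the 20 and the -0.59 above, so the fit does not separate marker level from that library. For fluoxetine and lithium, the female minus male difference called 0 of 31 members (0.106% and 0% of all genes), with medians of 0.079 and 0.17. By edgeR, by DESeq2 and at an unadjusted p under 0.05 the count was likewise 0 in both. Without HT vehicle female 3 the medians were -0.12 (5 positive) and -0.010 (14 positive), and without HT vehicle male 1 they were 0.25 and 0.32. For fluoxetine the median was 0.24 with the marker covariates and 0.33 with the high-marker libraries left out, and for lithium 0.11 and 0.29. Leaving out HT fluoxetine female 2 gave -0.090 for fluoxetine, and leaving out HT lithium female 2 gave 0.081 for lithium.

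The spread between libraries of the same group was the largest feature of these genes, and its stage medians rose from the precursor to the myelinating genes. Measured as the within-group SD of log2(value + 1), it had a median of 0.14 over the precursor genes, 0.18 over the lineage factors, 0.26 over the newly formed genes and 0.31 over the myelinating genes. The median over the 13828 genes whose mean reached 50 was 0.107. The SD of Nkx6-2, Mal and Mobp (0.35 each) exceeded that of 96.9% or more of these genes, and that of Mbp exceeded 95.7%. Car2 (0.12), Gpr17 (0.12), Pdgfra (0.11) and Enpp2 (0.11) lay near the median of all genes. Car2, Gpr17 and Enpp2 thus lay below the precursor gene Cspg4 (0.16) and below all 3 lineage factors (lowest 0.18). The first 3 stage medians rest on 2, 3 and 4 genes, so they do not fix an order of stages. HT vehicle female 3 held the lowest value of 25 of the 31 genes, and HT fluoxetine female 2 the highest of 18.

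**Figure D4:**
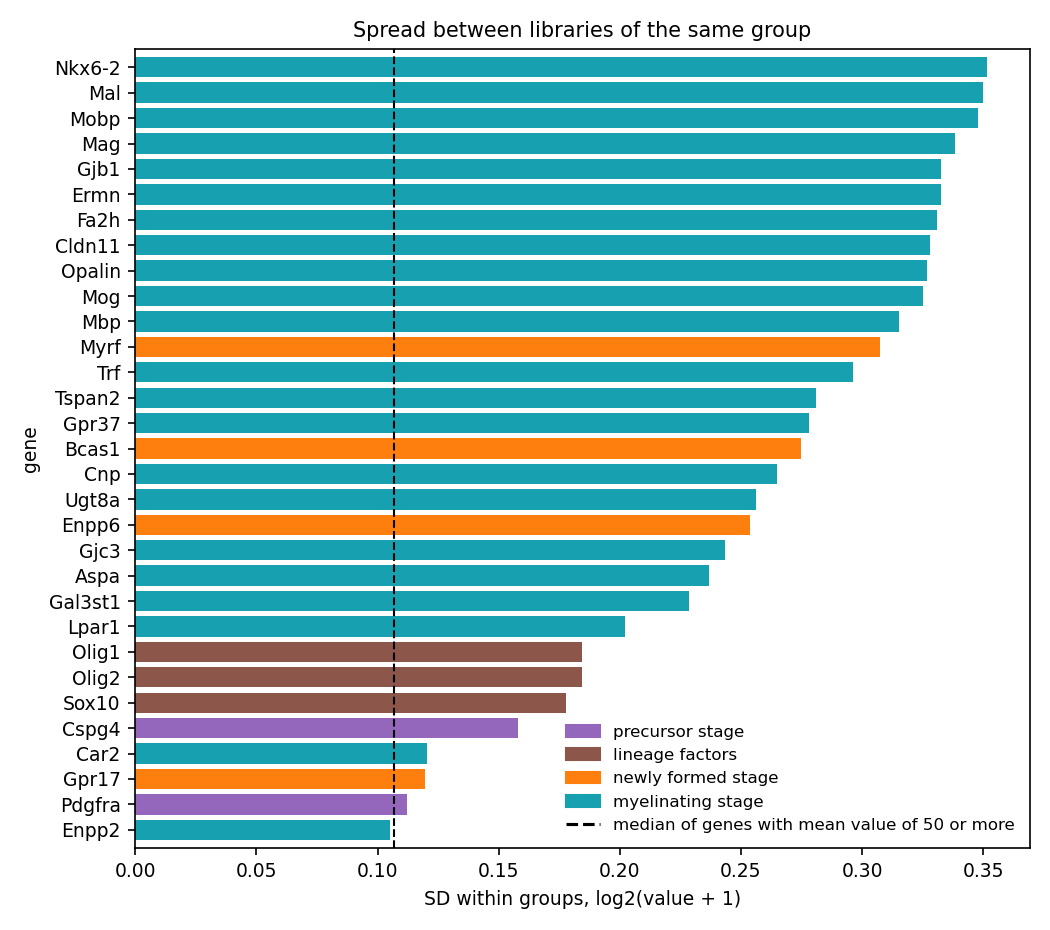
Within-group SD of log2(value + 1) on the x axis for each of the 31 genes on the y axis, coloured by stage, with the median of 13828 genes as a dashed line at 0.107. Myelinating genes fill the top of the plot up to 0.35, and Pdgfra, Gpr17, Car2 and Enpp2 sit at the bottom between 0.11 and 0.12.

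The spread was shared. After the group means were removed, the Pearson correlation of each gene with the mean of the other myelinating genes over the 29 libraries had a median of 0.95 over the 22 myelinating genes, led by Cldn11 at 0.99 and Mbp at 0.98. These correlations are a description: the values share library, dissection and depth. Bcas1 (0.96), Myrf (0.94) and Enpp6 (0.85) followed the myelin genes, and so, less tightly, did Olig1 (0.85), Sox10 (0.77) and Olig2 (0.69). Gpr17 stood at 0.52, Cspg4 at 0.38 and Pdgfra at 0.087, so the variation between libraries that moved the myelin genes was hardly seen in the precursor receptor. Enpp2 was again the exception among the myelinating genes, at -0.096.

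Outside the list, the genes most like the myelinating mean included Tmem88b (0.97), Plekhb1 (0.96), Prr18 (0.96), Plekhh1 (0.95), Pllp (0.94), Gatm (0.94) and Sec14l5 (0.94). Those most like Pdgfra were Epb41l2 (0.84), L3mbtl1 (0.81), Itga4 (0.79), Unc5d (0.79), Csf1r (0.78), Nr2e1 (0.77), Fam13c (0.76) and Ccdc88c (0.76).

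Since the myelinating genes moved together, stretches upstream of start sites are shown for 4 of them, with Pdgfra, which did not move with them. Mobp, Mag and Cnp were chosen because their windows hold matches to the letters marked, and Cldn11 because it was closest to the myelinating mean. The sequences are the 250 bases before an annotated start site, from RefSeq on GRCm38.p6, written 5′ to 3′ on the strand of the gene. For Mobp, Mag, Cnp and Cldn11 the bases after the window were found in a GENCODE transcript of the gene. For Pdgfra they were not: its window ends at 75152250, and the GENCODE gene starts at 75152292. Of the 31 genes, 21 matched an entry. Capitals mark matches on either strand to the letters of SOX-type sites (ACAAAG or ACAATG) or of MYRF-type sites (CTGGCAC or CTGGTAC). In these 5 windows no match overlaps another.
Mobp, chr9:120149492-120149741, plus strand: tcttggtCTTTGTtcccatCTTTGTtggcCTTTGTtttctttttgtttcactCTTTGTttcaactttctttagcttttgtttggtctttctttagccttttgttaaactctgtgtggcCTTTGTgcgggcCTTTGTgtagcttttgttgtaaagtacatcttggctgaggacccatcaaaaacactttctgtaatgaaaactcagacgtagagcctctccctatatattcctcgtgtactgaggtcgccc
Mag, chr7:30914864-30915113, minus strand: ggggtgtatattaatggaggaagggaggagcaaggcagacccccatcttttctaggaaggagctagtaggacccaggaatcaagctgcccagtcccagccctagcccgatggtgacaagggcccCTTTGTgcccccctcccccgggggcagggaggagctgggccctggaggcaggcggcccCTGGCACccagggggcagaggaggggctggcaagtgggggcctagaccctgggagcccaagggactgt
Cnp, chr11:100574689-100574938, plus strand: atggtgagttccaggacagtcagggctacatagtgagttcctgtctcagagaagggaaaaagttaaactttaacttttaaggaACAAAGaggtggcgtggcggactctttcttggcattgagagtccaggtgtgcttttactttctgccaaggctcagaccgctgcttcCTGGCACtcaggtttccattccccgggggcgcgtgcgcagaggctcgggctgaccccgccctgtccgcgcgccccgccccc
Cldn11, chr3:31149670-31149919, plus strand: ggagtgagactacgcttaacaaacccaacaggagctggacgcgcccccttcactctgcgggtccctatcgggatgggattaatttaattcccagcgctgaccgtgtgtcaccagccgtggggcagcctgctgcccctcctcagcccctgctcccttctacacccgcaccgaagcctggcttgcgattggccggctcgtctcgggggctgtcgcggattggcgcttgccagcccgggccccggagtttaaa
Pdgfra, chr5:75152001-75152250, plus strand: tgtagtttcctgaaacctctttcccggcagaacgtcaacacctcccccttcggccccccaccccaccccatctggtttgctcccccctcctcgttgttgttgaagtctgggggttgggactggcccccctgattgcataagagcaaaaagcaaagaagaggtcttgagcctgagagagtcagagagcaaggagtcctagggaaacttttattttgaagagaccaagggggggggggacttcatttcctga

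The Mobp window holds 6 matches to the SOX letters, from 243 to 120 bases before the start. Mag holds a SOX match 126 bases and a MYRF match 68 bases before its start, and Cnp holds a SOX match 167 bases and a MYRF match 81 bases before its start. The windows of Cldn11 and Pdgfra hold neither, which says only that these letters are not in them. No window of Mal, Ugt8a, Gjc3, Gpr37 or Nkx6-2 holds a match either. Some genes have several start sites, so the 21 genes gave 31 windows. Windows of 1 gene can overlap and hold the same match, as in Mag and Gal3st1, so the counts of windows below are not separate sites. By gene, the SOX letters were in 11 of 21 and the MYRF letters in 4 of 21. No share by gene was taken over all windows. The SOX letters were in 15 of these 31 windows (48.4%) and in 25.2% of all 32851 windows of the same length. The MYRF letters were in 5 (16.1%) against 5.93%, and the E-box letters CAGCTG, bound by helix-loop-helix factors, were in 1 (3.23%), that of Aspa, against 13.0%. A match of letters is a description of the sequence and does not show a bound site.

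Striatal markers moved with the myelin genes, and olfactory bulb markers did not. Over 16 striatal markers whose mean reached 50, the correlation with the myelinating mean ranged from 0.35 to 0.80 (median 0.64), while olfactory bulb markers had a median of -0.24 over 8 genes and astrocyte, microglial and endothelial markers medians of -0.12, -0.11 and -0.061. The 12 cortical excitatory neuron markers ranged from -0.62 to 0.79 (median 0.19). The 13 mitochondrially encoded genes had a median of -0.36 and the 12 meningeal markers 1 of -0.30. The summed striatal level ran from 10576 to 22986 in WT vehicle, from 10885 to 13631 in HT vehicle, from 10145 to 35551 in HT fluoxetine and from 11253 to 21508 in HT lithium, and no marker was at 0 in every library. All 3 libraries of HT fluoxetine with high striatal means had myelinating means of at least 0.20, whereas no HT vehicle library reached a high striatal mean. Over the 22 libraries without a high striatal mean, the myelinating mean still ran from -0.62 to 0.22. The part of neighbouring tissue in the group differences was not tested beyond the fits above.

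**Figure D5:**
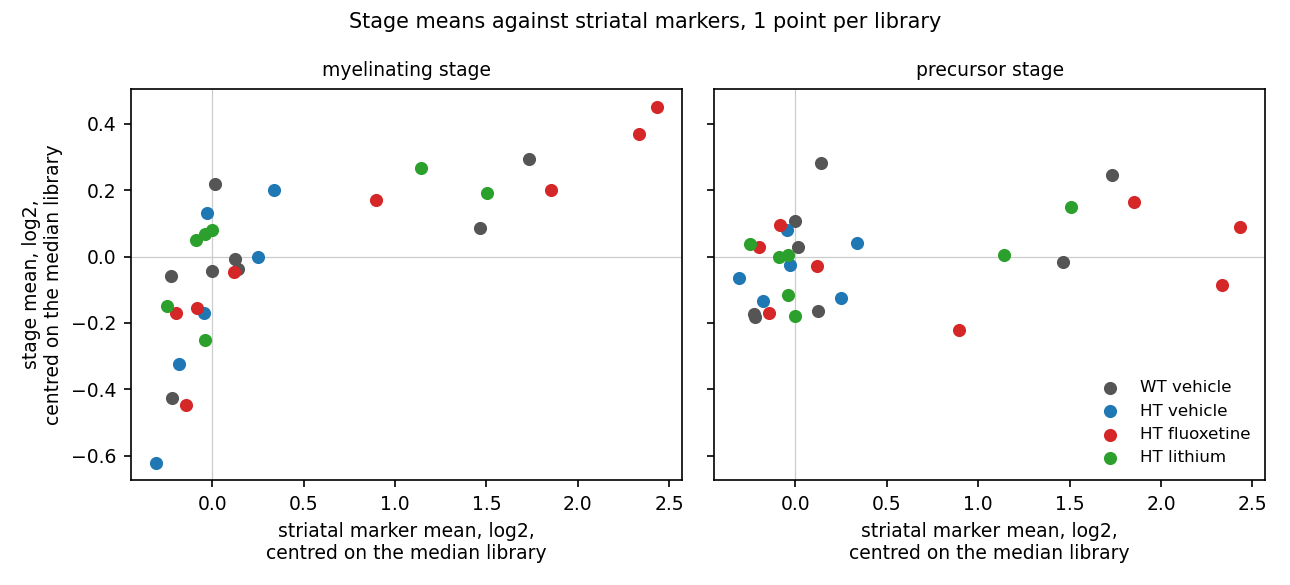
Mean of the myelinating genes (left) and of the precursor genes (right) on the y axis against the mean of 19 striatal markers on the x axis, both log2 and centred on the median library, with 1 point per library coloured by group. The 3 HT fluoxetine libraries furthest right lie at 0.20 or above in the left panel, and between -0.086 and 0.16 in the right panel.

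Other genes of the lineage, taken from lists beside the 31, were read in the same way, and none was called for genotype, fluoxetine or lithium. For lithium minus WT vehicle 2 were called, both higher, where 1.9% of all genes were called. One was Susd5, 1 of 18 other precursor genes (0.35 ± 0.091, limma adjusted p = 0.0445). The other was Lingo1, 1 of 21 signalling genes (0.29 ± 0.072, limma adjusted p = 0.0325). Of the 36 other myelinating genes, 13 transcription factors and 12 genes listed under lipid synthesis none was called there. The 2 calls are not read as a result about the lists. Of 36 other myelinating genes, 31 were negative for genotype (median -0.093) and 33 and 28 were positive for fluoxetine and lithium (medians 0.11). Ndrg1 stood at 0.26 ± 0.115 under fluoxetine and 0.26 ± 0.119 under lithium, Mcam at -0.22 ± 0.090 for genotype and Anln at 0.45 ± 0.200 under fluoxetine. Dusp26 went the other way for genotype, 0.16 ± 0.056 (limma adjusted p = 0.195). Of 18 other precursor genes, 12 were negative for genotype with a median of -0.056, the medians for the drugs were 0.034 and -0.020, and their correlation with the myelinating mean had a median of -0.045. Among them Susd5 ran from 239 to 370 in WT vehicle and from 326 to 512 in HT vehicle, 0.37 ± 0.095 (limma adjusted p = 0.0911).

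Of 13 other transcription factors of the lineage, Id4, an inhibitor of differentiation, had the smallest p in all 3 comparisons. It ran from 1338 (median 1483) to 1767 in WT vehicle, from 1162 (1286) to 1419 in HT vehicle, from 1382 (1469) to 1686 in HT fluoxetine and from 1346 (1406) to 1531 in HT lithium. HT vehicle lay at -0.21 ± 0.057 against WT vehicle (limma adjusted p = 0.0995), and fluoxetine at 0.20 ± 0.057 against vehicle (adjusted p = 0.424). Among 21 signalling genes, Lingo1, a neuronal and oligodendroglial receptor that restrains differentiation, ran from 8655 to 14062 in WT vehicle and from 12550 to 15705 in HT vehicle (0.27 ± 0.075, limma adjusted p = 0.114). Its co-receptor gene Rtn4r stood at 0.24 ± 0.079 and the chemokine gene Cxcl12 at -0.13 ± 0.050. Under lithium Cxcl12 stood at 0.16 ± 0.052 (limma adjusted p = 0.276). Bulk values do not show which cells the transcripts of Id4, Lingo1 or Cxcl12 came from. In the genotype comparison all 10 endothelial and 9 of 12 astrocyte markers were negative too (medians -0.13 and -0.094). The list of 12 genes headed sphingolipid and very long chain lipid synthesis also holds Galc, which breaks down galactosylceramide and so does not stand for synthesis. Galc stood at -0.18 ± 0.046 under lithium (limma adjusted p = 0.247), with 769 to 863 in HT lithium and 860 to 1008 in HT vehicle.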

How the data were processed

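Bulk RNA-seq of 29 libraries of mouse prefrontal cortex was analysed, with groups taken from the sample labels. The submitters' processing notes list Salmon 0.11.2, R 3.6.0, DESeq2 1.19.11 and GRCm38, with no roles. The authors deposited 1 signal value per gene and library: read counts divided by a size factor, as the steps of the deposited values show. Dividing by each step gave whole reads for 100.0% of values (tolerance 0.0001), 22.81 M to 31.71 M per library, and 3 HT fluoxetine libraries (female 1, female 2, male 3) had a step close to 1. Of 18240 IDs, 18227 matched a gene name.

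Differences were fitted with limma 3.58.1 (R 4.3.3, intensity trend) to log2(value + 1) over the 17881 genes at 10 or more in at least 3 libraries. The fit had 8 groups of genotype, treatment and sex and 21 residual degrees of freedom, and a difference is the mean of the female and male differences. Fold changes are on the log2(value + 1) scale, tests were two-sided, and p-values were adjusted by Benjamini-Hochberg over all genes tested, with a threshold of 0.05. The replicate libraries differed by more than sampling noise. Recovered reads were tested with edgeR 4.0.16 and DESeq2 1.42.0 as alternatives, among 15 other settings and 29 fits that each left out 1 library. The fit was tested on simulated data in which genes were drawn independently with the same dispersion. That simulation does not cover the wider, shared spread of the myelinating genes.

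The members and lists were chosen with earlier results of these data known. Group values are given for the main genes of each stage and for the 3 members with the smallest p for genotype, fluoxetine and lithium. Beside the members, genes were named from the 3 with the smallest p in each other list and comparison, and from the 8 with the highest correlation with the myelinating mean or with Pdgfra. Tbr1 and Slc17a7 are given as checks. Some genes that these rules name are not reported here.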

Additional observations from a re-analysis of the deposited data

Results flagged for a closer look

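Of 124 sets of values (31 genes in 4 groups), 5 had 1 library far from the others, against about 1 in 20 by chance alone. WT vehicle male 2 stood apart from the other WT vehicle libraries with 657.87 for Mog, 846.91 for Ugt8a and 562.42 for Lpar1 (normalised read counts). Its gap to the next library was 0.572, 0.54 and 0.766 of the range of the group. Aspa was at 177.3 in HT vehicle female 3, a gap of 0.653 of the range, and at 181.44 in HT lithium male 3, a gap of 0.571. All 5 were the lowest value of their group.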

How the results depend on the processing

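The count of members called was 0 under all 44 other settings in 6 comparisons, and under the same settings in the 3 female minus male comparisons, which have no fit with sex as an additive term. The replicate numbers of the titles, which for the HT vehicle females differ from those in the column names, did not pair the libraries: the correlation of deviations had a median of -0.0137 over 94 same-numbered pairs and 0.0044 over 273 others. With the replicate number as a replicate block, 0 members were called in each comparison, and calls over all genes went from 37 to 82 for genotype, from 34 to 63 for fluoxetine against WT, from 340 to 449 for lithium against WT and from 19 to 13 for fluoxetine female minus male. Genotype calls over all genes were 212 by DESeq2, 29 by edgeR, 63 with a filter at 50, 8 with only the groups compared, 18 with sex as an additive term, 95 with the marker covariates and 0 without the high-marker libraries. In that order of the last 2 settings they were 88 and 1 for fluoxetine against WT, 175 and 16 for lithium against WT, and 32 and 1 for fluoxetine female minus male (19 as reported). DESeq2 gave 96, 588 and 198 there, and fits with only the groups compared gave 0 for fluoxetine against WT and 1 for fluoxetine female minus male. Over fits without 1 library, genotype calls ran from 2 when HT vehicle female 1 was left out to 176 when the one left out was WT vehicle male 4. They ran from 10 to 98 for fluoxetine against WT (without HT fluoxetine females 4 and 1), from 85 to 722 for lithium against WT (without HT lithium female 3 and WT vehicle male 4), and from 4 to 50 for fluoxetine female minus male (without HT vehicle female 3 and HT fluoxetine female 2). For fluoxetine, lithium and their difference DESeq2 called 6, 32 and 2 genes, and edgeR 0. Over those 6 comparisons and their settings, the smallest adjusted p of a member was 0.0992 (Pdgfra, genotype, limma with marker covariates). Precision is limited by 6 to 8 libraries a group.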
